A study of Mus musculus with 8 samples.

Results

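The 10 genes studied here are known for fluid and bicarbonate secretion in the pancreas and comprise 4 aquaporin genes (*Aqp1*, *Aqp5*, *Aqp8*, and *Aqp12*), the bicarbonate transporter genes *Slc26a6* and *Slc4a4*, the carbonic anhydrase gene *Car2*, and the ion channel genes *Cftr*, *Ano1*, and *Kcnn4*. They were chosen for their known roles, with earlier results of these data known, and matched by symbol, and all 10 were found among the 48709 genes listed for each library. RNA-Seq had been performed on pancreata of male mice at 8 weeks of age, 24 hours after induction by i.p. injections. FAEE-SAP is a model of severe alcoholic acute pancreatitis made with palmitoleic acid (POA) and ethanol, and control mice received saline. Per the paper's methods, buprenorphine was given with the first POA and ethanol injection. It is not stated for control mice, so any effect of it cannot be told apart from that of POA and ethanol. The 4 groups were WT saline, WT FAEE-SAP, cKO saline, and cKO FAEE-SAP, with 2 libraries in each, described as biological replicates. The cKO mice carried floxed *Pfkfb3* (Pfkfb3 fl/fl) and Pdx1-Cre, so that Cre under the *Pdx1* promoter removes exons of this glycolytic regulator in pancreatic epithelium of all kinds. Pdx1-Cre acts from the embryo onward in acinar, duct, and islet cells and leaves other cells of the organ with the gene. The WT mice were purchased and were not described as littermates, so genotype and source of the mice cannot be told apart.

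Acinar cells secrete the digestive enzymes of pancreatic juice with a chloride-rich fluid, which leaves through calcium-activated chloride channels at the apical membrane. Duct cells then add bicarbonate, which enters from the blood side through a sodium bicarbonate cotransporter, is also formed inside the cell by carbonic anhydrase, and leaves through the CFTR channel and apical chloride/bicarbonate exchangers. Potassium channels keep the cell interior negative and so sustain the exit of anions, and water follows through aquaporins. Failure of this flow, as in cystic fibrosis, is a known setting of pancreatitis.

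The libraries held 22.9 to 37.7 M mapped reads, as worked out from the deposited RPKM (reads per kilobase of exon, relative to all mapped reads of the library), and whether a read here is 1 read or a pair was not settled. RPKM were scaled by the median of ratios, and the scaling moved every comparison, because the median gene as deposited differed by a log2 fold change of 1.24 between FAEE-SAP and saline in WT and by 0.57 in cKO. Values below are scaled RPKM unless they are called deposited, and log2 fold changes were taken after adding 0.1 to the scaled RPKM. The pancreatic label was borne out by the acinar markers, all 14 of which were above 0 in every library. Their summed scaled RPKM was 223865 to 262561 with saline and 70049 to 73829 with FAEE-SAP in WT, and 300769 to 311264 with saline and 175209 to 192216 with FAEE-SAP in cKO. *Pfkfb3* ranged from 1.69 to 3.21 scaled RPKM in WT and from 0.880 to 2.82 in cKO. The genotypes overlapped with either treatment, and a value for the whole gene does not test a deletion of a few exons. In whole tissue, fewer cells of a type and less RNA per cell cannot be told apart.

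The secretion genes covered a wide range of levels, and *Aqp12* stood far above the others. *Aqp12*, an aquaporin kept mostly inside acinar cells, had a mean over the 8 libraries of 67.0 scaled RPKM, with a lowest library of 22.5 and a highest of 113. It made up 69.3% to 88.2% of the summed RPKM of the 10 genes in a library. *Aqp1*, the water channel of capillary endothelium and of some duct cells, came next at a mean of 7.06 (5.22 to 10.6), so that the ranges of these genes did not meet. *Ano1*, the calcium-activated chloride channel TMEM16A of the acinar apical membrane, and *Aqp8*, a water channel of acinar cells, had means of 2.35 and 1.81 scaled RPKM with overlapping ranges. *Kcnn4*, a calcium-activated potassium channel, *Slc26a6*, an apical chloride/bicarbonate exchanger, and *Car2*, the cytosolic carbonic anhydrase of duct cells, had means of 0.841, 0.745, and 0.397, and these also overlapped.

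The lowest were *Slc4a4*, *Aqp5*, and *Cftr*. *Slc4a4*, the basolateral sodium bicarbonate cotransporter, had a mean of 0.187 scaled RPKM, *Aqp5*, an apical water channel of glands, 0.103, and *Cftr*, the apical anion channel, 0.0804. None of these 3 reached the minimum for testing, a deposited RPKM of 0.5 in 2 libraries of a comparison. *Car2* reached it only in the comparisons that included WT FAEE-SAP, through the libraries in which it was highest, and *Kcnn4* did so only through FAEE-SAP within cKO and only through WT after saline. The order compares values per exon length. For *Aqp5* and *Kcnn4*, the lengths implied by the deposited values were 1659 and 2219 bases against annotated exonic lengths of 2599 and 5115 bases, so their place in the order depends on the length the authors used.

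**Figure D1:**
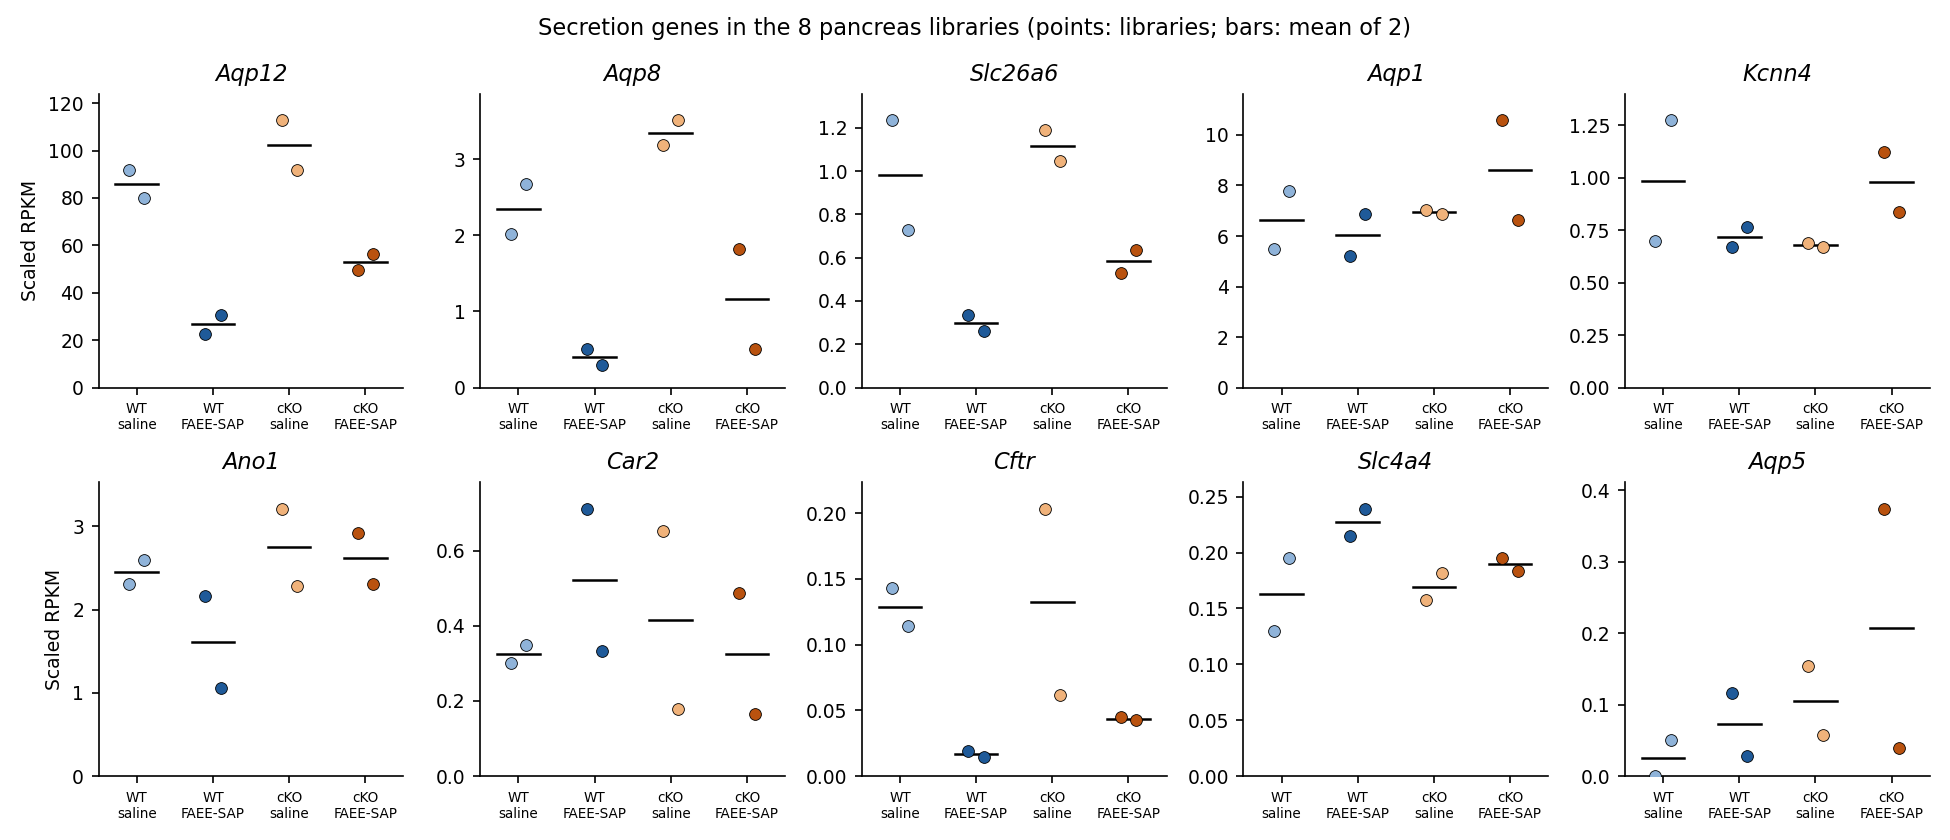
Scaled RPKM (linear axis from 0, its own range for each gene) of the 10 secretion genes in the 8 libraries. Points are libraries and bars are means of 2. *Aqp12*, *Aqp8*, *Slc26a6*, and *Cftr* lie lower in both FAEE-SAP libraries than in both saline libraries of the same genotype, whereas *Aqp1*, *Car2*, and *Aqp5* overlap.

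The promoters of the 3 genes with the largest log2 fold changes in WT among those tested, *Aqp12*, *Aqp8*, and *Slc26a6*, are shown beside that of *Aqp1*, whose level overlapped between treatments. They are RefSeq sequences from GRCm38.p6, 5' to 3' on the strand of the gene, from 250 bases before to 50 bases after the RefSeq start. Capitals mark matches, on either strand, to CACCTG, an E-box that basic helix-loop-helix factors of acinar cells can bind, and to TTTCCC, the TC-box of the acinar factor complex PTF1. The windows are chr1:93006084-93006383 for *Aqp12*, chr7:123462044-123462343 for *Aqp8*, chr9:108853793-108854092 for *Slc26a6*, and chr6:55336049-55336348 for *Aqp1*, all on the plus strand.
Aqp12: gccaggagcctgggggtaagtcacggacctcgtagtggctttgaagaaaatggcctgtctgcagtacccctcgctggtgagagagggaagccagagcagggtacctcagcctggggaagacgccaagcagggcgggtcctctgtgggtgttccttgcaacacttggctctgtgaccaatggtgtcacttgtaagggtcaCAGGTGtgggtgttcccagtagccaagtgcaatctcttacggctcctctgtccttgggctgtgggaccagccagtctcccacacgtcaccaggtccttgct
Aqp8: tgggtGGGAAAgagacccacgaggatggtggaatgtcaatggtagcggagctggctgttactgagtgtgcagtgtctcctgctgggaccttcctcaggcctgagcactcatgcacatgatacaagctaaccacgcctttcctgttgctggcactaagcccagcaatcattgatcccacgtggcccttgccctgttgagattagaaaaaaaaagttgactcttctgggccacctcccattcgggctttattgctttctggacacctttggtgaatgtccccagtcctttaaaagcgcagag
Slc26a6: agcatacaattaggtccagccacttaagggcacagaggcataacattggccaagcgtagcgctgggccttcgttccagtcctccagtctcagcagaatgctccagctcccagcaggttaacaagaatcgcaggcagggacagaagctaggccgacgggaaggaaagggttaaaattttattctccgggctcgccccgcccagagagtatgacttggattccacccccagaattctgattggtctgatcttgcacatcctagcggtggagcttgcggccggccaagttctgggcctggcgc
Aqp1: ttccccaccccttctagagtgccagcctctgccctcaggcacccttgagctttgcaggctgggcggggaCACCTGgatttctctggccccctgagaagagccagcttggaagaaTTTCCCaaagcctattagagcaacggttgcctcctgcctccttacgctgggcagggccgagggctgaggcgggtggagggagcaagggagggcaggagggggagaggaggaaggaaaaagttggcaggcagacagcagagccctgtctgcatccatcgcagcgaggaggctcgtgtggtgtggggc
*Aqp12* holds CACCTG read on the opposite strand (CAGGTG), *Aqp8* holds TTTCCC read on the opposite strand (GGGAAA), *Aqp1* holds both motifs, and *Slc26a6* holds neither. The 9 members in the table have 10 promoters, a pair of which belong to *Slc4a4*. Of the 10, 4 hold CACCTG, 1 of them from the *Slc4a4* pair, and 3 hold TTTCCC, while these motifs are in 20.2% and 25.2% of all 32851 promoters of this length. The other E-boxes searched were CAGCTG, found in the promoter of *Ano1* alone among these 10 and in 16.3% of all, and CATATG, found in none of the 10 and in 3.91% of all. The motifs do not overlap each other in letters. *Car2* was not in the table.

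*Aqp12* and *Aqp8* fell with FAEE-SAP in WT mice. *Aqp12* (chr1:93006334-93012269; gene positions are GRCm38 from GENCODE vM21, plus strand unless stated) was 91.6 and 80.1 scaled RPKM in WT saline and 22.5 and 30.8 in WT FAEE-SAP. Group means were 85.9 ± 8.19 and 26.6 ± 5.89 (SD, n = 2), and both FAEE-SAP libraries lay well under both saline libraries. The log2 fold change was -1.71 (SE 0.21, 95% interval -2.22 to -1.20, limma with Benjamini-Hochberg adjusted p = 0.0119). *Aqp8* (chr7:123462291-123468004) was 2.02 and 2.67 scaled RPKM in WT saline and 0.504 and 0.299 in WT FAEE-SAP, again without overlap. Its means were 2.35 ± 0.461 and 0.402 ± 0.145 (SD, n = 2), and its log2 fold change was -2.36 (SE 0.31, 95% interval -3.11 to -1.60, limma with Benjamini-Hochberg adjusted p = 0.0142). These 2 were the members called, at an adjusted p under 0.05 and at least 2-fold, of 7 tested. Of all 10894 genes tested in this comparison, 6.93% were called, 3.86% as lower. Without WT saline replicate 1 the adjusted p of *Aqp12* was 0.0515 at a log2 fold change of -1.60, and without WT FAEE-SAP replicate 2 that of *Aqp8* was 0.0833 at -1.98, by the same limma test with Benjamini-Hochberg adjustment.

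*Slc26a6* (chr9:108853283-108913049) had the next lowest value. Its scaled RPKM was 1.23 and 0.726 in WT saline and 0.334 and 0.260 in WT FAEE-SAP, and the groups did not overlap. The log2 fold change of -1.46 (SE 0.33, 95% interval -2.28 to -0.65) missed the threshold by limma with a Benjamini-Hochberg adjusted p of 0.0549. Without WT saline replicate 2, the lower of the saline pair, the value was -1.86 and passed (limma, Benjamini-Hochberg adjusted p = 0.0361), and in 1 model of all 8 libraries it was -1.41 and passed (adjusted p = 0.0252).

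The other 4 tested genes did not pass. *Aqp1* (chr6:55336432-55348555) was 5.49 and 7.77 scaled RPKM in WT saline and 5.22 and 6.87 in WT FAEE-SAP, which overlap, with a log2 fold change of -0.13 (95% interval -0.75 to 0.49). *Kcnn4* (chr7:24370263-24386690) was 0.697 and 1.27 in WT saline and 0.669 and 0.767 in WT FAEE-SAP, for a log2 fold change of -0.37 (95% interval -1.18 to 0.44). Among its known sites are T cells and red cells as well as gland epithelium. *Ano1* (chr7:144588549-144751974, minus strand) was 2.30 and 2.59 scaled RPKM in WT saline and 2.17 and 1.06 in WT FAEE-SAP, without overlap but with very unequal FAEE-SAP libraries, for a log2 fold change of -0.66 (95% interval -1.54 to 0.21). *Car2* (chr3:14886273-14900770) was 0.300 and 0.349 in WT saline and 0.712 and 0.332 in WT FAEE-SAP, which overlap, and no test is given for it, since it reached the minimum only with FAEE-SAP. In limma with Benjamini-Hochberg adjustment the other 3 genes had adjusted p from 0.287 to 0.786. Of the 7 genes tested, *Car2* included, 6 had negative log2 fold changes and 4 did not overlap between treatments, against 58.8% of all genes tested that did not overlap. Their median log2 fold change was -0.66, beside 0.017 for all genes tested.

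**Figure D2:**
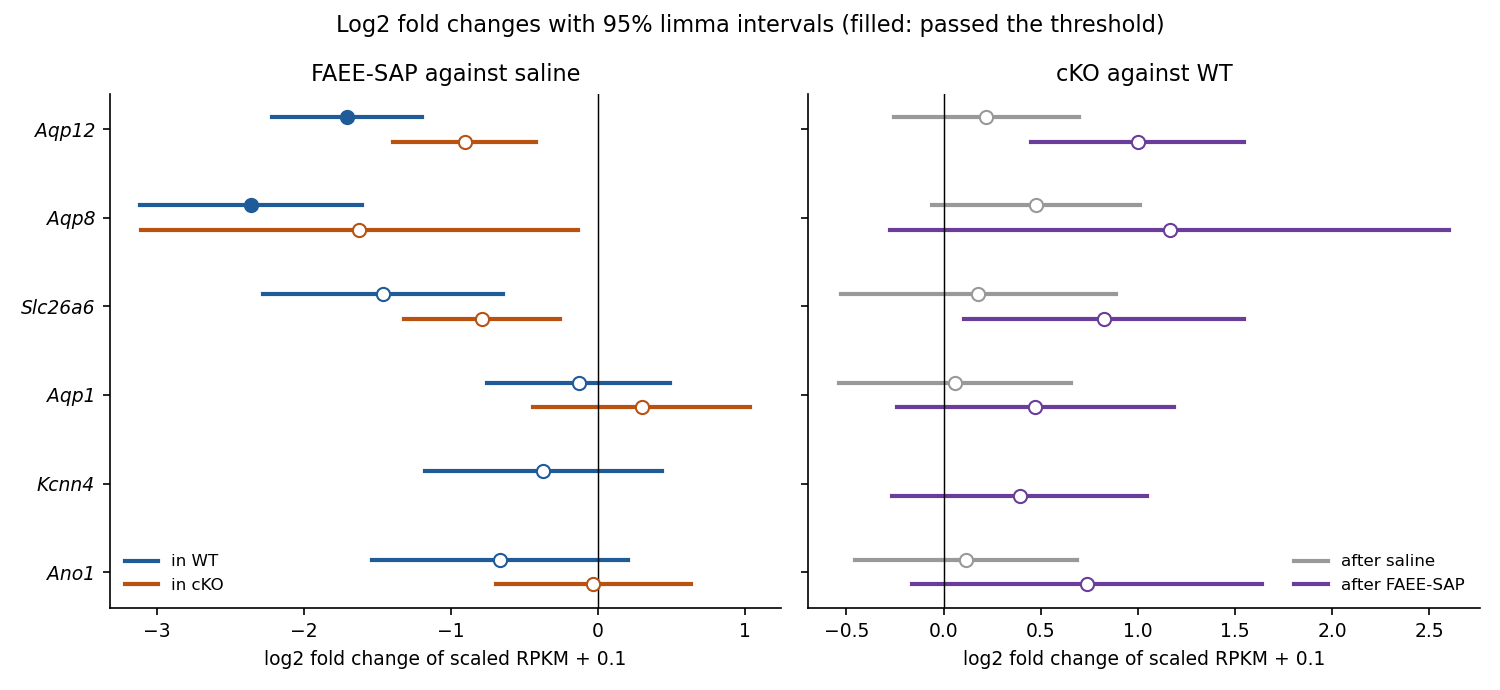
Log2 fold changes of the secretion genes whose mean deposited RPKM was at least 0.5 in both groups compared (horizontal axis, log2 of scaled RPKM + 0.1) with 95% limma intervals, for FAEE-SAP against saline (left) and cKO against WT (right). Filled points passed the threshold, and these are *Aqp12* at -1.71 and *Aqp8* at -2.36 in WT.

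The scale decided several of these values. As deposited, *Aqp12* was 66.7 and 69.3 RPKM in WT saline and 45.5 and 59.6 RPKM in WT FAEE-SAP, still without overlap, but its log2 fold change of -0.38 did not pass in limma with a Benjamini-Hochberg adjusted p of 0.118. *Aqp8* as deposited was 1.47 and 2.31 RPKM in WT saline and 1.02 and 0.579 in WT FAEE-SAP and passed at -1.16 (limma, Benjamini-Hochberg adjusted p = 0.0217). *Aqp1*, at -0.13 when scaled, was at 1.18 as deposited and then passed as higher (limma, Benjamini-Hochberg adjusted p = 0.0108). *Car2* was at 1.58 as deposited and 0.50 when scaled. *Kcnn4* and *Ano1* changed sign as well, to 0.83 and 0.60. Set against the median gene at 1.24, *Aqp1* lay close to the middle of all genes on the deposited scale, and *Aqp12*, *Aqp8*, and *Slc26a6*, at -0.32 as deposited, lay below it on both scales.

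**Figure D3:**
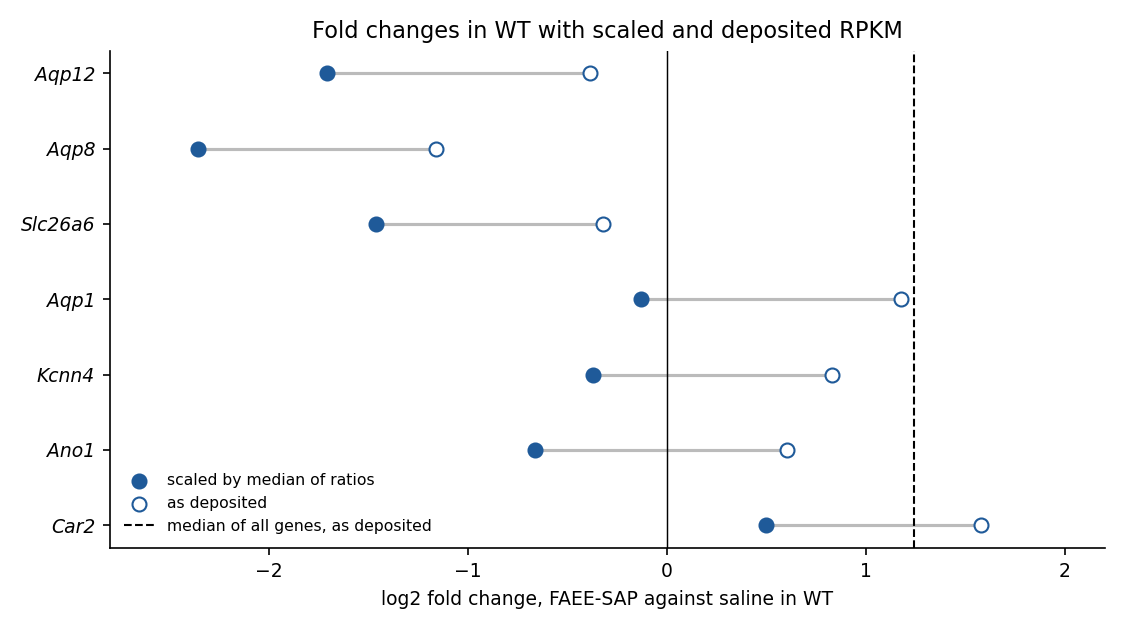
Log2 fold change of FAEE-SAP against saline in WT (horizontal axis) for the 7 secretion genes tested, with values scaled by the median of ratios (filled) and as deposited (open). The dashed line is the median of all genes as deposited, 1.24, and every gene moves to the right without scaling, *Aqp1* from -0.13 to 1.18.

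A ratio of 2 genes within a library needs no scaling. *Aqp12* was 16.7 and 10.3 times *Aqp1* in WT saline and 4.30 and 4.49 times in WT FAEE-SAP. In cKO it was 16.1 and 13.3 times *Aqp1* with saline and 4.70 and 8.50 times with FAEE-SAP. The ratio of *Aqp8* to *Aqp1* was 0.368 and 0.344 with saline and 0.0965 and 0.0436 with FAEE-SAP in WT, and 0.454 and 0.511 with saline and 0.172 and 0.0757 with FAEE-SAP in cKO. Both ratios were thus lower in every FAEE-SAP library than in every saline library, of either genotype. For *Slc26a6* the ratio was 0.225 and 0.0935 in WT saline and 0.0640 and 0.0378 in WT FAEE-SAP, and 0.170 and 0.152 against 0.0502 and 0.0958 in cKO, lower in each genotype. The ratios of *Ano1* and of *Kcnn4* to *Aqp1* overlapped between treatments in WT.

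**Figure D4:**
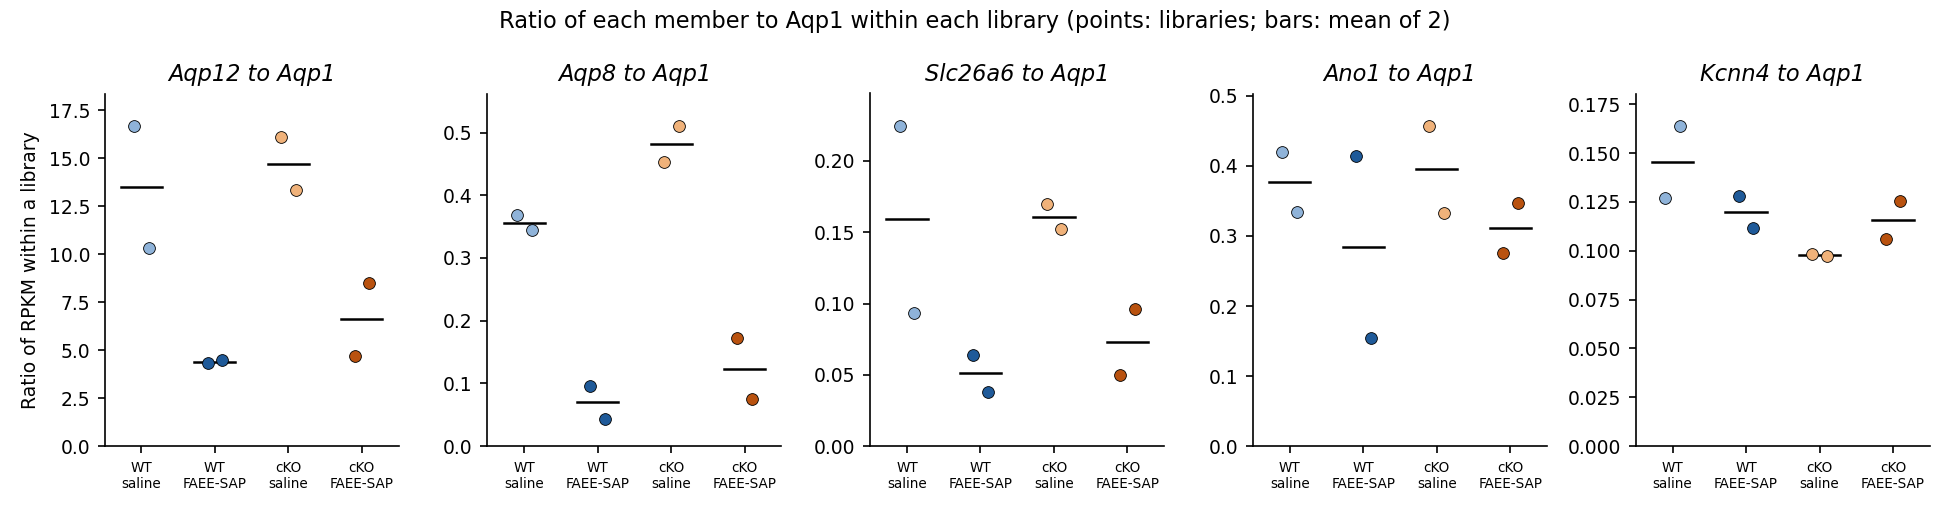
Ratio of 5 secretion genes to *Aqp1* within each library (linear axis from 0). Points are libraries and bars are means of 2. *Aqp12* to *Aqp1* is 10.3 to 16.7 in the saline libraries and 4.30 to 8.50 in the FAEE-SAP libraries.

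Acinar markers were lower in WT FAEE-SAP, as *Aqp12* and *Aqp8* were. Of the 14 acinar markers, 11 passed as lower in WT FAEE-SAP and 0 as higher (3.86% and 3.08% of all genes), and all 14 had negative log2 fold changes. These ranged from -3.47 for *Bhlha15* to -0.13 for *Cuzd1*. The summed RPKM of the list is set mostly by abundant enzyme genes. *Ctrb1* alone was 82719 of 262561 in WT saline replicate 1 and 29176 of 70049 in WT FAEE-SAP replicate 1. A ratio to this sum thus follows those genes, and other markers of the list would give other ratios. Per 1000000 RPKM of the acinar markers, *Aqp12* was 349 and 358 in WT saline and 321 and 417 in WT FAEE-SAP, which overlap, and *Slc26a6* was 4.70 and 3.24 against 4.77 and 3.52, which overlap as well. *Aqp8* was 7.70 and 11.9 in WT saline and 7.20 and 4.06 in WT FAEE-SAP, lower on this scale too, by a narrow gap. In cKO, *Aqp12* was 362 and 305 with saline and 284 and 294 with FAEE-SAP on this scale, and *Slc26a6* was 3.82 and 3.47 against 3.03 and 3.32, both lower without overlap, while *Aqp8* overlapped. Islet markers were also lower in part in WT, where 6 of 7 had negative log2 fold changes and 2 were called lower, and 3 of 7 were called higher in cKO than in WT after FAEE-SAP. Of the endothelial markers, 10 of 10 were tested and 0 called, all 10 had negative log2 fold changes (median -0.32), and they had sums of 25.6 and 29.2 scaled RPKM in WT saline and 26.3 and 20.8 in WT FAEE-SAP. Markers of smooth muscle and interstitial cells, which also use *Ano1*, summed to 18.7 and 18.0 in WT saline and 12.3 and 8.82 in WT FAEE-SAP, and the library with the lower sum also had the lower *Ano1*. Leukocyte markers summed to 8.76 and 19.8 in WT saline and 65.5 and 55.1 in WT FAEE-SAP. The neutrophil genes *S100a8* and *S100a9* made up most of the sum in WT FAEE-SAP but little of it in WT saline. Islet markers summed to 339 and 285 in WT saline and 181 and 239 in WT FAEE-SAP, and to 372 and 302 against 428 and 450 in cKO. None of the endothelial, muscle, leukocyte, or islet markers was at 0 in any library, and their part in the results was not tested.

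In cKO mice, none of 6 secretion genes tested passed with FAEE-SAP, in a comparison that called 0.0531% of 9423 genes. *Aqp12* was 113 and 91.6 scaled RPKM in cKO saline and 49.8 and 56.6 in cKO FAEE-SAP, with means of 102 ± 15.0 and 53.2 ± 4.80 (SD, n = 2) and no overlap. Its log2 fold change was -0.91 (SE 0.19, 95% interval -1.39 to -0.42, limma with Benjamini-Hochberg adjusted p = 0.347), and -0.28 as deposited. *Aqp8* was 3.18 and 3.51 in cKO saline and 1.82 and 0.503 in cKO FAEE-SAP, where the libraries differed several-fold, for a log2 fold change of -1.62 (SE 0.57, 95% interval -3.11 to -0.13, adjusted p = 0.495 by limma with Benjamini-Hochberg adjustment). *Slc26a6* was 1.19 and 1.04 in cKO saline and 0.531 and 0.637 in cKO FAEE-SAP, also without overlap, for a log2 fold change of -0.79 (SE 0.20, 95% interval -1.32 to -0.26, adjusted p = 0.430 by limma with Benjamini-Hochberg adjustment). As deposited, the log2 fold change was -0.25 for *Slc26a6* and -1.05 for *Aqp8*. *Aqp12*, *Aqp8*, and *Slc26a6* had an unadjusted p under 0.05 in limma, as did 9.42% of all genes tested. At that threshold and 2-fold, *Aqp8* would be called, as would 2.97% of all genes tested.

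The remaining cKO values lay nearer to saline. *Aqp1* was 7.01 and 6.87 scaled RPKM in cKO saline and 10.6 and 6.65 in cKO FAEE-SAP, for a log2 fold change of 0.30 (95% interval -0.44 to 1.04) that was -0.026 without cKO FAEE-SAP replicate 1. That library had the highest *Aqp1* and *Aqp5* of all 8, and also the highest sums of endothelial markers (37.5, next 30.8) and of smooth muscle markers (29.1, next 20.1). *Kcnn4* was 0.691 and 0.668 in cKO saline and 1.12 and 0.836 in cKO FAEE-SAP, without overlap, and no test is given for it, since it reached the minimum only with FAEE-SAP. *Ano1* was 3.21 and 2.29 against 2.92 and 2.30, which overlap, for a log2 fold change of -0.031 that was 0.56 as deposited. Among the 6 genes tested, 4 did not overlap between treatments, 1 of which was *Kcnn4*, beside 43.2% of all genes tested.

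After FAEE-SAP, *Aqp12*, *Slc26a6*, *Ano1*, and *Kcnn4* were higher in both cKO libraries than in both WT libraries, but none of 7 genes tested passed the threshold. Of 11008 genes tested, 1.27% were called in this comparison and 51.9% did not overlap between genotypes. The mean of *Aqp12* was 53.2 scaled RPKM in cKO against 26.6 in WT. Its log2 fold change was 0.999 (SE 0.22, 95% interval 0.45 to 1.55, limma with Benjamini-Hochberg adjusted p = 0.111). In 1 model of all 8 libraries this value was 1.01 and passed the threshold, with a limma and Benjamini-Hochberg adjusted p of 0.0499. *Slc26a6* had means of 0.584 ± 0.0750 and 0.297 ± 0.0529 scaled RPKM (SD, n = 2) and a log2 fold change of 0.83 (SE 0.29, 95% interval 0.11 to 1.55, limma with Benjamini-Hochberg adjusted p = 0.212). The pair of *Aqp12* and *Slc26a6* had an unadjusted p under 0.05, as did 19.5% of all genes tested. As deposited, *Aqp12* was 52.1 and 55.2 RPKM in cKO and 45.5 and 59.6 in WT, which overlap, with a log2 fold change of 0.042, and *Slc26a6* was 0.556 and 0.622 against 0.677 and 0.502, with one of 0.0081. *Aqp8* overlapped between genotypes, since 1 cKO library was at 1.82 and the other at 0.503, beside 0.504 and 0.299 in WT, and its log2 fold change was 1.16 (95% interval -0.27 to 2.60).

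The intervals of the other 3 spanned 0, and no test is given for *Car2*, which reached the minimum in both libraries only in WT. *Ano1* was at 0.74 (95% interval -0.16 to 1.64), *Aqp1* at 0.47 (-0.24 to 1.18), and *Kcnn4* at 0.39 (-0.26 to 1.05) on the log2 scale. As deposited, *Aqp1*, *Kcnn4*, and *Ano1* had the opposite sign, at -0.48, -0.49, and -0.19, where the median of all genes was -0.91. Acinar markers were again on the side of *Aqp12*, with 7 of 14 called higher in cKO than in WT after FAEE-SAP, beside 0.863% of all genes. Of smooth muscle and interstitial markers 6 of 6 tested, of endothelial markers 9 of 10, and of macrophage markers 6 of 7 had positive log2 fold changes in this comparison, with 0 called. Red blood cell markers were positive in 5 of 5, whereas leukocyte markers were negative in 7 of 8 and adipocyte markers in 6 of 6. The part of these cell types in the values of *Ano1* and *Aqp1* was not tested. Per 1000000 RPKM of the acinar markers, *Aqp12* was 284 and 294 in cKO FAEE-SAP and 321 and 417 in WT FAEE-SAP, lower in cKO without overlap. *Slc26a6* was 3.03 and 3.32 with cKO against 4.77 and 3.52 with WT on this scale, also lower in cKO.

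After saline, none of 6 secretion genes tested passed between genotypes, and none had an unadjusted p under 0.05 in limma. Of all 8715 genes tested, 0% were called and 2.15% had an unadjusted p under 0.05. The log2 fold change of cKO against WT was 0.47 for *Aqp8* (95% interval -0.062 to 1.01) and 0.18 for *Slc26a6* (-0.53 to 0.89). For *Aqp12*, *Aqp1*, and *Ano1* it was 0.22, 0.060, and 0.12, and each of these turned negative as deposited, at -0.058, -0.21, and -0.15. *Slc26a6* turned slightly negative too, at 0.739 and 0.695 deposited RPKM in cKO against 0.899 and 0.629 in WT, which overlap. *Aqp8* was higher and *Kcnn4* lower in both cKO libraries, so that 2 of 6 genes did not overlap, beside 28.3% of all genes tested. *Kcnn4* reached the minimum only through WT here, and its test is not given.

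The test of whether the response to FAEE-SAP differed between genotypes, the interaction term of a model of all 8 libraries, called none of 7 secretion genes. It called 0.0719% of 11133 genes. *Aqp12* alone had an unadjusted p under 0.05 in limma, as did 12.6% of all genes, with a difference of 0.76 between its log2 responses in cKO and WT (SE 0.29, 95% interval 0.084 to 1.44, Benjamini-Hochberg adjusted p = 0.358). The value was 0.10 as deposited. The difference was 0.81 for *Kcnn4*, 0.62 for *Aqp8*, 0.59 for *Ano1*, 0.58 for *Slc26a6*, and 0.39 for *Aqp1*, with intervals that all span 0. That of *Car2* was -0.70, the only negative one of the 7, and no test is given for it, since only the WT FAEE-SAP group had both libraries at the minimum. That of *Aqp1* was -0.27 and that of *Ano1* -0.040 as deposited, and that of *Aqp8* was -0.20 without cKO FAEE-SAP replicate 1. A passed threshold for *Aqp12* and *Aqp8* in WT and not in cKO is therefore not a shown difference between the genotypes.

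*Cftr* (chr6:18170687-18322768) had few reads and a large difference. It was 0.143 and 0.114 scaled RPKM with saline and 0.0194 and 0.0142 with FAEE-SAP in WT, and 0.203 and 0.0617 with saline and 0.0446 and 0.0427 with FAEE-SAP in cKO. Treatment groups did not overlap within either genotype. These values came from 23 and 21 reads with saline and 7 and 7 with FAEE-SAP in WT, and 37 and 10 with saline and 10 and 10 with FAEE-SAP in cKO. The ratio of FAEE-SAP to saline in WT was 0.128 (95% exact counting interval 0.0650 to 0.239) when scaled and 0.318 (0.161 to 0.592) as deposited, and these intervals cover counting error only. In cKO the ratio was 0.319 (0.179 to 0.550) when scaled and 0.503 (0.282 to 0.865) as deposited. Fitted without the minimum on RPKM, its log2 fold change in WT was -1.08 (SE 0.21, limma with Benjamini-Hochberg adjusted p = 0.0847), a value held toward 0 by the added 0.1. In cKO, where the saline libraries had 37 and 10 reads, the log2 fold change of *Cftr* was -0.55. Its 95% interval was -1.42 to 0.32 (limma with Benjamini-Hochberg adjusted p = 0.743). Its exons overlap those of the antisense gene *Gm15592* over 129 bases, and that gene was listed at 0 in every library.

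*Slc4a4* (chr5:88886818-89239653) was 0.130 and 0.195 scaled RPKM in WT saline and 0.215 and 0.239 in WT FAEE-SAP, slightly higher in both. In cKO it was 0.158 and 0.182 with saline and 0.195 and 0.184 with FAEE-SAP, from 40 to 61 reads a library. Its ratio of FAEE-SAP to saline was 1.39 (95% exact counting interval 1.08 to 1.81) in WT and 1.12 (0.84 to 1.5) in cKO when scaled, and 3.45 (2.67 to 4.49) and 1.77 (1.32 to 2.37) as deposited, counting error only. Fitted without the minimum on RPKM, its log2 fold change was 0.40 in WT (95% interval -0.36 to 1.16) and 0.095 in cKO (-0.45 to 0.64), with limma and Benjamini-Hochberg adjusted p of 0.531 and 0.889. *Aqp5* (chr15:99590782-99594829) rested on 0 to 18 reads a library, with values from 0 in WT saline replicate 1 to 0.374 scaled RPKM in cKO FAEE-SAP replicate 1, and its groups overlapped between treatments in both genotypes. *Car2* in cKO was 0.652 and 0.178 with saline and 0.486 and 0.164 with FAEE-SAP, a spread between replicates larger than any difference between groups.

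The duct markers did not follow *Cftr* as one. Of 11 duct markers, 10 were tested in WT, 4 were called higher with FAEE-SAP and 1 lower, beside 3.08% and 3.86% of all genes. *Krt19*, a keratin of duct cells, was 6.76 and 5.51 scaled RPKM in WT saline and 11.5 and 11.0 in WT FAEE-SAP. *Sox9*, a duct transcription factor, was 0.983 and 0.991 against 0.854 and 0.588. The summed list was 1199 and 1220 with saline and 521 and 567 with FAEE-SAP in WT, and 1106 to 1349 with saline and 760 to 775 with FAEE-SAP in cKO. *Tff2* alone made up most of this sum in every library except those of WT FAEE-SAP. None of the duct markers was at 0.

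A wider list of 89 genes of epithelial fluid and bicarbonate secretion, all present in the files, was tested beside the 10. In WT, 47 reached the minimum and 4 were called with FAEE-SAP, *Slc26a9* and *Adora2b* as higher and *Stk39* and *Car8* as lower, a share near the 6.93% of all genes called. Of the 4, only *Stk39* reached the minimum in both groups, and the others reached it through the group in which they were high, so their tests are not given. Of the 47, 24 had positive and 23 negative log2 fold changes, 16 had an unadjusted p under 0.05 (27.7% of all genes tested had), and the median was 0.037, close to that of all genes. In cKO, 1 of 39 tested was called, *Car9* as higher, beside 0.0531% of all genes. Between genotypes, 0 of 35 were called after saline, with 0 at an unadjusted p under 0.05 in limma, and 1 of 46 after FAEE-SAP, *Slc26a9* as lower in cKO, beside 0.409% of all genes. *Car9* and *Slc26a9* reached the minimum in these comparisons only through the group in which they were high, so nothing is read from either count. None of 8 other aquaporins reached the minimum in WT. The 12 other exchangers, cotransporters, and pumps for sodium gave 8 tested genes and 0 called in WT, the 12 potassium channels 4 and 0, and the 9 other chloride channels 5 and 0.

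*Slc26a9*, a chloride channel and transporter of the same family as *Slc26a6*, was near 0 with saline and above that with FAEE-SAP in both genotypes. It was 0.0185 and 0.00808 scaled RPKM in WT saline, from 2 and 1 reads, and 1.83 and 3.03 in WT FAEE-SAP, from 443 and 1003 reads. In cKO it was 0 and 0.0367 with saline and 0.444 and 0.406 with FAEE-SAP, from 0, 4, 67, and 64 reads. The counting ratio of FAEE-SAP to saline was 195 in WT and 24.6 in cKO when scaled, and 482 and 38.7 as deposited, over very few saline reads. The ratio of cKO to WT after FAEE-SAP was 0.168 when scaled and 0.0862 as deposited. The gene reached the minimum for testing only in the WT FAEE-SAP libraries, where it was high. No interval is therefore given, and the ratios only describe these libraries.

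*Adora2b*, an adenosine receptor that raises cAMP and can activate CFTR, was 0.0262 and 0 scaled RPKM in WT saline, from 1 and 0 reads, and 0.420 and 0.513 in WT FAEE-SAP, from 36 and 60 reads. The counting ratio was 38.8 when scaled and 96.1 as deposited, over 1 saline read in all. Only the WT FAEE-SAP group, where the gene was high, reached the minimum for testing, so no interval is given. In cKO *Adora2b* was 0.162 and 0.104 with saline, from 7 and 4 reads, and 0.113 and 0.0539 with FAEE-SAP, from 6 and 3 reads, a counting ratio of 0.614 when scaled and 0.967 as deposited. *Stk39*, which encodes the kinase SPAK, a regulator of CFTR and of cation chloride cotransporters, was 6.81 and 4.95 in WT saline and 2.10 and 1.44 in WT FAEE-SAP, for a log2 fold change of -1.70 (SE 0.28, limma with Benjamini-Hochberg adjusted p = 0.0272). In cKO it was 5.33 and 7.78 with saline and 3.75 and 5.75 with FAEE-SAP, which overlap. *Car8*, a carbonic anhydrase-related protein without the enzyme activity that binds the IP3 receptor, was 0.879 and 1.80 in WT saline and 0.212 and 0.197 in WT FAEE-SAP, without overlap, and reached the minimum only with saline. The call of *Stk39* was lost without either WT FAEE-SAP library, at adjusted p of 0.0544 and 0.140 (limma, Benjamini-Hochberg), and also without WT saline replicate 1 (adjusted p = 0.104) and as deposited (-0.41, adjusted p = 0.204).

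*Car9*, a carbonic anhydrase of the cell surface known to be induced by hypoxia, was 0.278 and 0.312 scaled RPKM in cKO saline and 3.31 and 3.60 in cKO FAEE-SAP, from 15 and 15 against 220 and 250 reads, and reached the minimum only with FAEE-SAP. In WT it was 0.273 and 0.385 with saline and 1.72 and 0.274 with FAEE-SAP, so that 1 WT FAEE-SAP library was high and the other at the saline level.

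**Figure D5:**
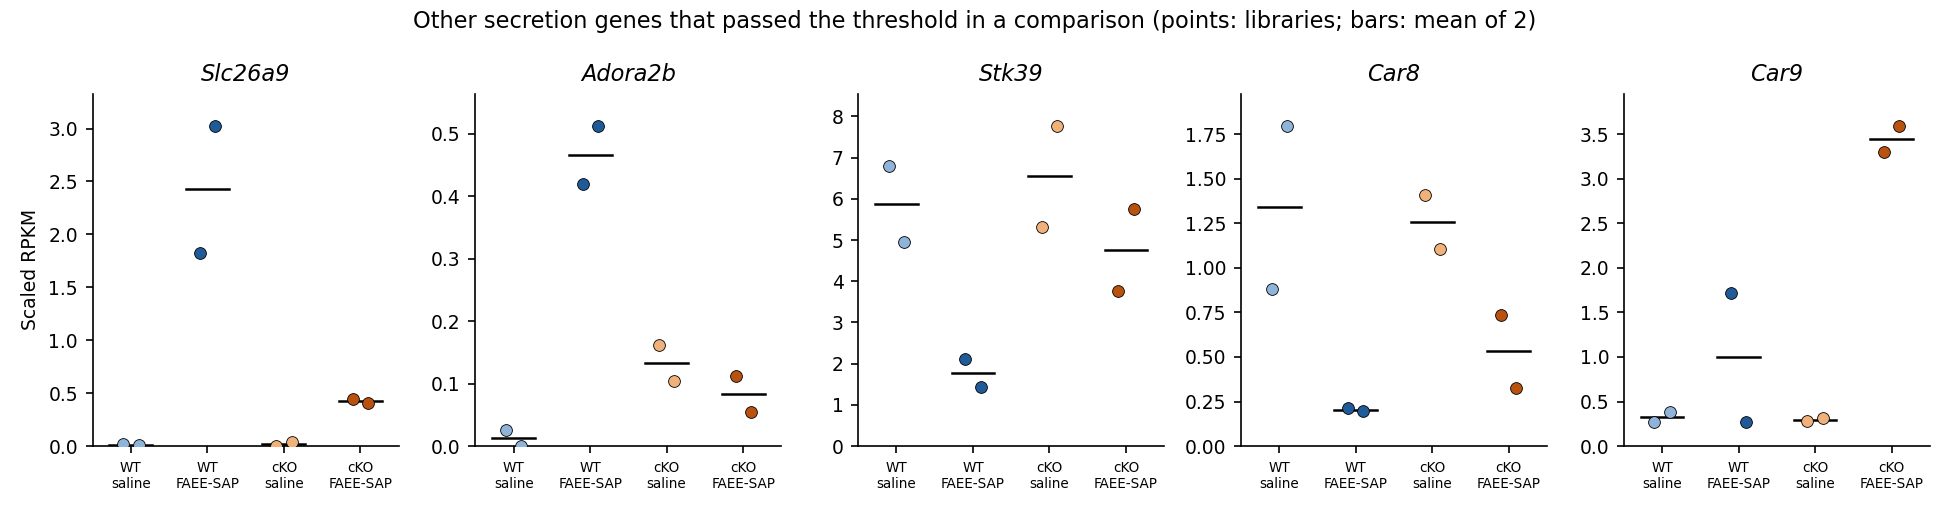
Scaled RPKM (linear axis from 0, its own range for each gene) of the 5 genes of the wider secretion list called in a comparison. Points are libraries and bars are means of 2. *Slc26a9* with FAEE-SAP reaches 1.83 and 3.03 for WT mice against 0.444 and 0.406 for cKO mice.

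The genes whose log2 levels over the 8 libraries were most like those of the called members were found among 11133 genes, as a description over libraries that share treatment and scaling. For *Aqp12* they were *Atf6*, a sensor of endoplasmic reticulum stress, *Rpl4*, a ribosomal protein gene, and *Ppm1l*, a phosphatase gene, at a Pearson r of 0.996, 0.996, and 0.994. *Atf6* was 7.39 and 6.80 scaled RPKM with saline and 3.12 and 3.72 with FAEE-SAP in WT, and 8.23 and 7.41 with saline and 4.62 and 5.41 with FAEE-SAP in cKO, the same order of groups as *Aqp12*. For *Aqp8* they were *Ogdh*, a mitochondrial dehydrogenase gene, *Ranbp3l*, and *Katnbl1*, at 0.989, 0.988, and 0.984. *Ranbp3l* was 1.07 and 1.28 with saline and 0.0639 and 0.0104 with FAEE-SAP in WT, and 1.52 and 1.31 with saline and 0.525 and 0.0983 with FAEE-SAP in cKO, with the same uneven pair of cKO FAEE-SAP libraries as *Aqp8*. Among the members themselves, r was 0.95 for *Aqp12* with *Slc26a6*, 0.85 for *Aqp12* with *Aqp8*, 0.73 for *Aqp1* with *Kcnn4*, and 0.17 for *Aqp12* with *Aqp1*.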

How the data were processed

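RNA-Seq of 8 mouse pancreas libraries in 4 groups was analyzed. Per the paper's methods and the submitters' processing notes, reads from a directional paired-end library were filtered with fastp and mapped to GRCm38.p6 with CLC Genomics Workbench. How expression was computed and whether counting used strand are not given in the sources used here. The authors deposited RPKM for each gene and library. Library totals were worked out from the whole-read steps of values under 20 reads with GENCODE vM21 exon lengths, where 84.2% to 85.5% were whole within 0.1 reads, and reads of matched genes summed to 100.3% to 105.7% of the totals, so reads are approximate and no count test was run.

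Libraries of a comparison were scaled by the median of ratios. Values per library printed in the report were scaled over all 8 libraries and 11133 genes. Genes with a deposited RPKM of at least 0.5 in 2 libraries of a comparison were tested on log2(scaled RPKM + 0.1) in R 4.3.3 by limma 3.58.1 with a variance prior that follows intensity, and p-values were adjusted by Benjamini-Hochberg over all genes tested. A gene was called at an adjusted p under 0.05 and at least 2-fold. The script was tested on simulated data. Named genes were the 10 members, called genes of the wider secretion list (up to 6 a comparison), up to 3 genes of a marker list, the targeted gene, and the 3 most similar genes of each called member. The members and lists were chosen with earlier results of these data known. Alternatives were deposited values, a trimmed mean scaling, other minimums, pseudocounts of 1 and 0.01, no trend, 1 model of all libraries, the replicate number as a block, an unadjusted threshold, and each library left out. A block with crossed replicate numbers was added after seeing the data.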

Additional observations from a re-analysis of the deposited data

How the results depend on the processing

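The count of secretion genes called with FAEE-SAP in WT, 2 as reported, was 1 at an RPKM minimum of 2, where 3 were tested and *Aqp8* was not, and 1 to 3 with each library left out. In cKO it was 0 and became 1, *Aqp8*, at an unadjusted p under 0.05. For cKO against WT after FAEE-SAP it was 0 and became 1, *Aqp12*, in 1 model of all 8 libraries. After saline and for the interaction it stayed at 0 under every alternative run. As deposited, log2 fold changes took the opposite sign in WT for *Aqp1* (1.18), *Kcnn4* (0.83), and *Ano1* (0.60), in cKO for *Ano1* (0.56) and *Stk39* (0.18), after saline for *Aqp1* (-0.21), *Aqp12* (-0.058), *Ano1* (-0.15), and *Stk39* (-0.15), after FAEE-SAP between genotypes for *Aqp1* (-0.48), *Kcnn4* (-0.49), and *Ano1* (-0.19), and in the interaction for *Aqp1* (-0.27) and *Ano1* (-0.040). That of *Slc26a6* after saline also turned negative as deposited, by less than its SE. With each library left out, values spanned 0 and changed sign by at least the SE for *Kcnn4* in WT (-0.78 to 0.013), *Aqp1* in cKO (-0.026 to 0.70), *Aqp8* in the interaction (-0.20 to 1.45), and, after saline, *Aqp1* (-0.22 to 0.32), *Slc26a6* (-0.14 to 0.48), *Ano1* (-0.12 to 0.35), *Stk39* (-0.15 to 0.38), and *Car8* (-0.54 to 0.44). Smaller changes of sign with a library left out are not listed. Apart from the effect of leaving out samples or scaling, the cause was not tested. Of 703 values under alternatives, 648 were counted as the same, 24 lost and 9 gained a call, and 22 changed sign. For a gene not called, a change of sign by less than the SE was counted as the same, so the 22 are not all changes of sign.

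Of the wider list, 4 genes were called in WT as reported, 30 as deposited, 2 without the minimum, at a minimum of 2, or without WT saline replicate 1, and 0 without either WT FAEE-SAP library. In cKO 1 was called, and 0 without the minimum, at a minimum of 2, in 1 model of all 8 libraries, with crossed numbers, or without any 1 library. Between genotypes after FAEE-SAP 1 was called, 18 as deposited, 2 with the replicate block, 0 without the minimum, with a pseudocount of 1, without the trend, or with crossed numbers, and 0 to 2 with each library left out. In the interaction 0 were called and 3 as deposited. Calls over all genes in WT numbered 755 as reported, 7270 as deposited, and 259 without the minimum.

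Deviations of same-numbered replicates correlated across genes at 0.18 to 0.40 among cKO saline, WT FAEE-SAP, and cKO FAEE-SAP and at -0.52 to -0.17 with WT saline, so the number was not taken as a pairing over all groups. With it as a block, 2 secretion genes were called in WT and 0 in every other comparison, as without it, while all calls in WT went from 755 to 442 and those between genotypes after FAEE-SAP from 140 to 568. With crossed numbers 2 and 0 were called as well, and 822 and 112 genes in all. With 2 libraries a group, only large or very even differences could pass, and a missed threshold does not show that levels were alike. *Cftr*, *Slc4a4*, and *Aqp5* were under the minimum for the test as reported.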
